A study of Mus musculus with 43 samples.

Results

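The regions described here are distal H3K27ac peaks of the mouse testis that were found at postnatal day 7 (P7) and not at P14. A region was selected on the H3K27ac peak lists themselves. It was a peak of P7 replicate 1 that shared at least 1 bp with a peak of P7 replicate 2 and with no peak of either P14 list, and its summit lay more than 3000 bp from every transcript start of GENCODE vM21. In all, 719 of the 21974 peaks of P7 replicate 1 (3.27%) met this rule. They made up 30.9% of the 2330 distal peaks found in both P7 replicates. Of the remaining distal peaks, 747 overlapped a peak in 1 P14 list and 864 (37.1%) overlapped a peak in both P14 lists. The last set is called the distal peaks at both ages and serves as a comparison, as do the 2612 distal peaks that were found in both P14 replicates and in neither P7 list (distal peaks new at P14). Because H3K27ac at both ages chose the regions, their presence at P7 and absence at P14 is a description and carries no test.

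The study deleted Prmt1, which encodes the main arginine methyltransferase of type I, in the mouse germline. Cleavage under targets and tagmentation (CUT&Tag) was run on WT C57BL/6J testis cells at P7 and P14 with antibodies to H3K27ac, H3K4me3 and 5 methylarginine marks (H4R3me2a, H3R2me2a, H3R8me2a, H4R3me1 and H4R3me2s), in 2 or 3 replicates per mark and age, and on P7 cells of the Prmt1 dKO for H4R3me2s in 2 replicates. In the dKO, tamoxifen given for 3 days activated a CreERT2 under the Ddx4 promoter in Prmt1 lox/lox males, so that somatic cells keep the gene by design. RNA was measured at P7 only, as bulk RNA-seq of polyA mRNA isolated from the total RNA of whole testis (3 WT, 3 dKO) and as Smart-seq2 of GFP-sorted spermatogonia (2 WT, 2 dKO). Whether the WT animals also received tamoxifen is left unsaid in the labels. By the study's methods, the WT cells of Smart-seq2 were heterozygous for the floxed allele and carried the Ddx4 reporter allele. The CUT&Tag cells came from digested tubules passed through a strainer to remove Sertoli cells. The paper reports, from staining and marker RNA, that germ cells were the great majority of the P7 filtrate. The labels name the P14 cells spermatogonia in 1 field and spermatocytes in another, and they call the whole-testis RNA spermatogonial. The paper speaks of biological replicates, while the labels do not say which animals each came from, so p-values measure only the spread between these samples.

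H3K27ac, the acetylation of lysine 27 of histone H3, is laid down by p300 and CBP at active promoters and enhancers, and away from promoters it is the usual mark of an active enhancer. Asymmetric dimethylation of arginine, as in H4R3me2a, is the product of type I enzymes such as Prmt1 and often lies with active chromatin, H4R3me1 is the monomethylated form, and H4R3me2s is the symmetric product of type II enzymes such as Prmt5. Between P7 and P14 the first wave of spermatogenesis passes from spermatogonia, the mitotic germ cells, to spermatocytes in meiosis, while Sertoli, peritubular and Leydig cells accompany them.

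The sequences around the summits of the 5 highest-ranked regions, together with that of the better-ranked of the 2 regions nearest to Kit, a germ cell gene, are given first, since several of them show the repeated sequence that a large share of these regions held. Each is the plus strand of 300 bases centred on the summit, from the RefSeq GRCm38 assembly, and is named by the nearest protein-coding gene. Capitals mark matches, on either strand, to 1 of 15 transcription factor motifs. The windows lie at chr11:40210345-40210644 (Mat2b), chr1:95451860-95452159 (Fam174a), chr13:76590844-76591143 (Mctp1), chr11:107198546-107198845 (Nol11), chr2:108622598-108622897 (Mettl15) and chr5:75377640-75377939 (Kit).
Mat2b: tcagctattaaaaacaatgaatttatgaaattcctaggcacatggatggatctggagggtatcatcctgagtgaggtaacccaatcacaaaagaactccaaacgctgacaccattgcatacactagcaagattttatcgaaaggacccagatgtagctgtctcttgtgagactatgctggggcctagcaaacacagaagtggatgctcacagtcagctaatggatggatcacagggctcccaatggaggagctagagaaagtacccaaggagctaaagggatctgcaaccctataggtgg
Fam174a: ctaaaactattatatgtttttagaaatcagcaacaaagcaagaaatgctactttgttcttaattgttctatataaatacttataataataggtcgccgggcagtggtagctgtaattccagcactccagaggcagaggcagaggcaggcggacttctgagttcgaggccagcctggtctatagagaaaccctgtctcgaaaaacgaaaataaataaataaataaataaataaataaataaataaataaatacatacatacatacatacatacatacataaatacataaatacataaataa
Mctp1: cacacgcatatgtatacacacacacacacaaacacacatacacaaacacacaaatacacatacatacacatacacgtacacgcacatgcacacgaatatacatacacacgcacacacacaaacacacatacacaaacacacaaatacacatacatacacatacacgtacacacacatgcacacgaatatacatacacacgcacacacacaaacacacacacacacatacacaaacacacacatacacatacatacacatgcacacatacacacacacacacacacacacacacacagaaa
Nol11: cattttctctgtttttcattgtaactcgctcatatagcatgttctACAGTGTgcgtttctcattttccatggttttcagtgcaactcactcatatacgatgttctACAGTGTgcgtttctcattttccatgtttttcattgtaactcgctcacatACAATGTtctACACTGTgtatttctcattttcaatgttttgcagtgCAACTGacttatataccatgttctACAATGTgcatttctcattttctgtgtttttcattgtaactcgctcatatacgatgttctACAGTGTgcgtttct
Mettl15: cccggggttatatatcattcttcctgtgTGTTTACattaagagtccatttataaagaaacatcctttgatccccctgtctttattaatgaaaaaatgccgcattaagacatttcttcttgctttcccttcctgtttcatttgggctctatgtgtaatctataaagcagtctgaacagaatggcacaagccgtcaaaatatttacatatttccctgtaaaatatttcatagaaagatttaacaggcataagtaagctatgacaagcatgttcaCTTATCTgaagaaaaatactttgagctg
Kit: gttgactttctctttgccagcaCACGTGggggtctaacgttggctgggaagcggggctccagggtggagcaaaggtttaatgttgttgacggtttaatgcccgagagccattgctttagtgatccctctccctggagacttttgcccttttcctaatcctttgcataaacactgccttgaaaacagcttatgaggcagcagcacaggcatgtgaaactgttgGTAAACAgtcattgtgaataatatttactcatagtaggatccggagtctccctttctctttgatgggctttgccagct
The Mctp1 window was made up to 85.7% of C and A on this strand and matched itself at 84.8% of positions when shifted by 90 bases. The Nol11 window matched itself at 83.8% of positions at a shift of 60 bases, and it held 6 matches to the DMRT1 core (ACANTGT) and 1 to CAACTG. The Fam174a window ends in runs of a 4-base unit, and the Mat2b window lay wholly in sequence that the assembly masks as interspersed or simple repeat. The Mettl15 window (8% masked) and the Kit window (0% masked) carried no such structure. Mettl15 held 1 match each to the FOX motif TGTTTAC and to the GATA motif AGATAAG, and Kit 1 each to TGTTTAC and to the E-box CACGTG. These letters are common: TGTTTAC was in 4.87% of the 719 windows and in 3.65% of 32851 RefSeq promoter windows of the same length, AGATAAG in 3.06% and 3.04%, ACANTGT in 13.8% and 7.54%, CAACTG in 10.2% and 13.7%, and CACGTG in 3.06% and 7.15%.

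The data behind the rule were thin at P7. The H3K27ac lists held 21974 and 23780 peaks at P7 and 37984 and 45817 at P14, and the lists of all marks covered between 0.178% and 0.771% of the genome. The number of reads behind each list was not used here, so the depth is unknown. Promoters of marker genes were counted as a description of the cells. A gene counted when both lists of an age had an H3K27ac summit within 3000 bp of a transcript start. At P7 and P14 this held for 3 and 15 of 18 germ cell genes. It held for 8 and 18 of 18 spermatocyte genes and for 5 and 8 of 19 Sertoli genes. Over all protein-coding genes the shares were 31.0% at P7 and 49.0% at P14, from P14 lists that were longer. In bulk WT testis the summed TPM (transcript abundance scaled to the library's total) of the Sertoli list was 8004 to 8650 and that of the germ cell list 1881 to 2174, whereas in Smart-seq2 WT cells these sums were 399.8 to 400.1 and 3317 to 3329. Whether the makeup of the CUT&Tag suspensions differed between the ages was not tested. Prmt1 itself stood at 604 to 652 TPM in WT and 402 to 433 TPM in dKO bulk testis, and at 239 to 350 and 150.96 to 179 TPM in Smart-seq2.

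The P7-only distal peaks were lower and narrower than the distal peaks at both ages. Their median fold enrichment over the local background, as MACS2 gave it, was 3.25 in replicate 1, with a range of 2.21 to 6.69, and 3.24 in replicate 2. For comparison, the median in replicate 1 was 3.64 for the distal peaks at both ages and 3.21 for the whole list. Only 121 regions (16.8%) had a q-value of 0.01 or less, against 48.8% of the distal peaks at both ages. Their median width was 308 bp, against 456.5 bp. The distal peaks new at P14 had a median width of 314 bp and a median fold enrichment of 3.26 in their own list, and the whole list of P7 replicate 1 had a median width of 294 bp. The heights in the 2 replicates were loosely related across regions (Spearman 0.283 over 719 regions, a description, since both values come from the lists that chose them). Among all distal peaks of replicate 1 without a P14 peak, 719 of 7306 (9.84%) were found again in replicate 2. That share was 32.4% of the distal peaks with a peak in 1 P14 list and 64.2% of those with a peak in both.

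The 10 highest-ranked regions, by the mean rank of fold enrichment over both replicates, ranged from 4.20 to 6.69 in replicate 1 and from 4.22 to 6.00 in replicate 2. The highest in replicate 1 lay in an intron of Mctp1, a membrane protein with C2 domains, at chr13:76590810-76591179 (6.69 and 5.21 in replicates 1 and 2). The next lay 9314 bp from Nol11, which takes part in ribosomal RNA processing, at chr11:107198215-107198976 (6.67 and 5.06). The best mean rank belonged to chr11:40210353-40210595 (5.55 and 5.62), an intronic position 474733 bp from Mat2b, the regulatory subunit of the enzyme that makes the methyl donor S-adenosylmethionine. The highest in replicate 2 was the intergenic region 138381 bp from Fam174a (5.18 and 6.00). The others lay near Mettl15 (a mitochondrial rRNA methyltransferase), Frmd6 (a FERM-domain protein), Gm21060, Sox11 (a transcription factor), Gabbr2 (a GABA-B receptor subunit, in its intron) and Rnf13 (a ubiquitin ligase, in its intron). Of the 10, 7 had a window repeated in the sense given below, and the other 3 were those of Mettl15, Sox11 and Rnf13.

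**Figure D1:**
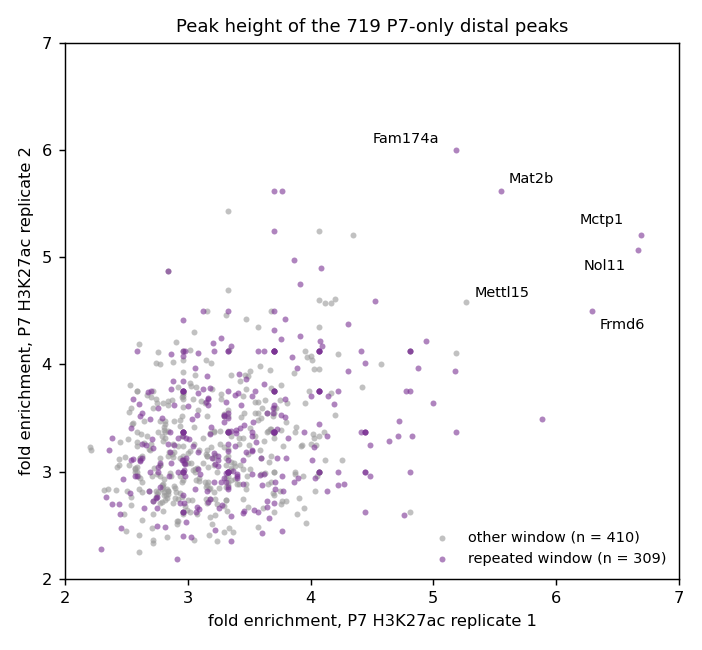
Fold enrichment (MACS2, no unit) of the 719 P7-only distal peaks in P7 H3K27ac replicate 1 (horizontal axis) and in the highest overlapping peak of replicate 2 (vertical axis), one point per region, purple for the 309 regions with a repeated window and grey for the other 410. The medians are 3.25 and 3.24, and of the 6 regions named beside their points all but that of Mettl15 have a repeated window.

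The distance rule had a soft edge. The members nearest to it had their closest transcript start 3085 bp (Gm45754), 3094 bp (Npn2) and 3099 bp (Fuca2) away, and the closest regions on the other side lay 2986 bp (Mir7228), 2985 bp (Fam126a) and 2951 bp (Tnrc18) from a start. Absence at P14 also had an edge. The median distance to the nearest P14 H3K27ac peak was 6000 bp, 183 regions (25.5%) had 1 within 1 kb, and 71 (9.87%) had none within 50 kb. The region in Fshr, for example, lay 18 bp from a P14 peak, and the one in Lats2 80 bp. The replicates of P14 mattered too, since 1153 regions met the rule without P14 replicate 1 and 1032 without P14 replicate 2, in place of 719.

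Repeated sequence was common under these regions. A 300-base window was called repeated when at least 50% of it was masked in the assembly, when it matched itself at 70% or more of positions at some shift of 1 to 100 bases (a tandem array), or when at least 270 bases of it aligned elsewhere in the genome with 90% identity. By this measure 309 windows (43.0%) were repeated, which is close to the 48.0% of the distal peaks at both ages and above the 16.0% of the distal peaks new at P14. At least 50% of the window was masked in 36.3%, 32.9% and 12.02% of these sets, a tandem array was found in 14.5%, 22.5% and 1.84%, and a copy elsewhere in 9.60%, 23.5% and 5.63%. Repeated windows were most frequent among the highest regions, with 64.0% of ranks 1 to 50 and 62.0% of ranks 51 to 100, against 35.4% of ranks 401 to 719. The regions found in both P7 replicates also held more of them than the 6587 distal peaks without a P14 peak that replicate 2 did not find again, with 36.3% against 22.6% masked and 14.5% against 4.40% in tandem arrays. These comparisons touch what the rule used and are given without a test.

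The windows were low in GC. The median GC content of the windows was 46.0%, against 49.3% for the distal peaks at both ages and 51% for the whole P7 list, and 18 windows (2.50%) held 10 or more CpG sites, against 3.48% of the distal peaks with a peak in 1 P14 list, 13.1% of those at both ages, 10.9% of those new at P14 and 31.7% of the whole list, which includes promoters. The GC-rich SP/KLF motif GGGCGGG was in 0.834% of the windows, against 4.86% at both ages and 25.6% of promoters, and the ETS motif CCGGAAG in 0.417%, against 1.97% and 8.86%. The AP-1 motif TGANTCA was in 7.51%, against 4.15% of the distal peaks with a peak in 1 P14 list and 8.10% of those at both ages. It was in 8.54% of those new at P14 and 7.81% of promoters. The TEAD motif ACATTCC was in 5.29%, against 3.61%, 3.94%, 3.87% and 3.85% in the same order. A match is a run of letters and not a shown binding site.

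The marks that did not enter the rule were next examined at these regions, with the peak list as the replicate. A methylarginine peak overlapped between 11.3% and 30.7% of the regions in every P7 list and between 13.5% and 30.04% in every P14 list, from P14 lists that were mostly longer. For H4R3me2a the lists overlapped 22.1%, 18.2% and 23.8% of the regions at P7 and 27.96%, 29.8% and 27.1% at P14, and every P14 list lay above every P7 list. H3R2me2a went from 16.1% and 22.1% to 29.3% and 30.04%, also without overlap between the ages. H3R8me2a gave 25.7% and 24.3% at P7 and 24.3% and 29.3% at P14, and H4R3me2s gave 11.3% and 16.1% at P7 and 20.4%, 13.5% and 17.1% at P14, with the ages overlapping in both. H4R3me1 was the only mark whose lists were all lower at P14, with 30.7% and 28.1% at P7 and 23.4% and 25.7% at P14. H3K4me3, the promoter mark, was on few regions at either age, with 5.29% and 5.98% at P7 and 6.82% and 5.56% at P14.

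Over the 6 marks and 27 lists, the share of regions overlapped was 3.05 percentage points higher at P14. An exact two-sided permutation test that exchanged ages within each mark gave p = 0.0404 (adjusted p = 0.0809 over 2 tests). This test and its variants take the 27 lists as independent. All lists were scored on the same regions, and whether lists of different marks came from the same cells is unknown. The P14 lists were 1.32 to 2.62 times as long as those of P7 for all marks other than H4R3me2s (0.885 times). With all lists of a mark cut to the same number of best peaks, the share was 3.33 percentage points lower at P14 (exact permutation, adjusted p = 0.0120), although that of H4R3me2s was 4.15 points higher. Such lists also differ in which peaks they hold. Set against the distal peaks at both ages in the same list, the regions did not shift measurably, with a log2 ratio that was 0.01 higher at P14 (exact permutation p = 0.895, adjusted p = 0.895), although lists of equal length gave a fall of 0.50 on the log2 scale (exact permutation, adjusted p = 0.00657). No mark alone could pass the test, since the smallest exact p was 0.10 with 3 lists against 3 (H4R3me2a) and 0.33 with 2 against 2.

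In all 27 lists the regions were overlapped less often than the distal peaks at both ages, of which 40.7% to 65.05% were overlapped. In all 23 methylarginine lists they were overlapped more often than the distal peaks new at P14, but the sets differed in their share of repeated windows (43.0% and 16.0%). Among windows without repeats, the P7-only regions were overlapped more often in 9 of 11 P7 lists and less often in 10 of 12 P14 lists, with 12.7%, 17.1% and 12.7% against 18.5%, 20.7% and 19.7% for H4R3me2a at P14. For H4R3me2a at P14 the means were 28.3% ± 1.35 (SD, n = 3 lists) for the P7-only regions, 61.1% ± 1.05 at both ages and 20.9% ± 1.18 for the regions new at P14. For H3K4me3 at P14 the order of the last pair was the other way round, with 6.19% ± 0.885 (SD, n = 2) of the P7-only regions and 16.7% ± 0.271 of those new at P14.

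**Figure D2:**
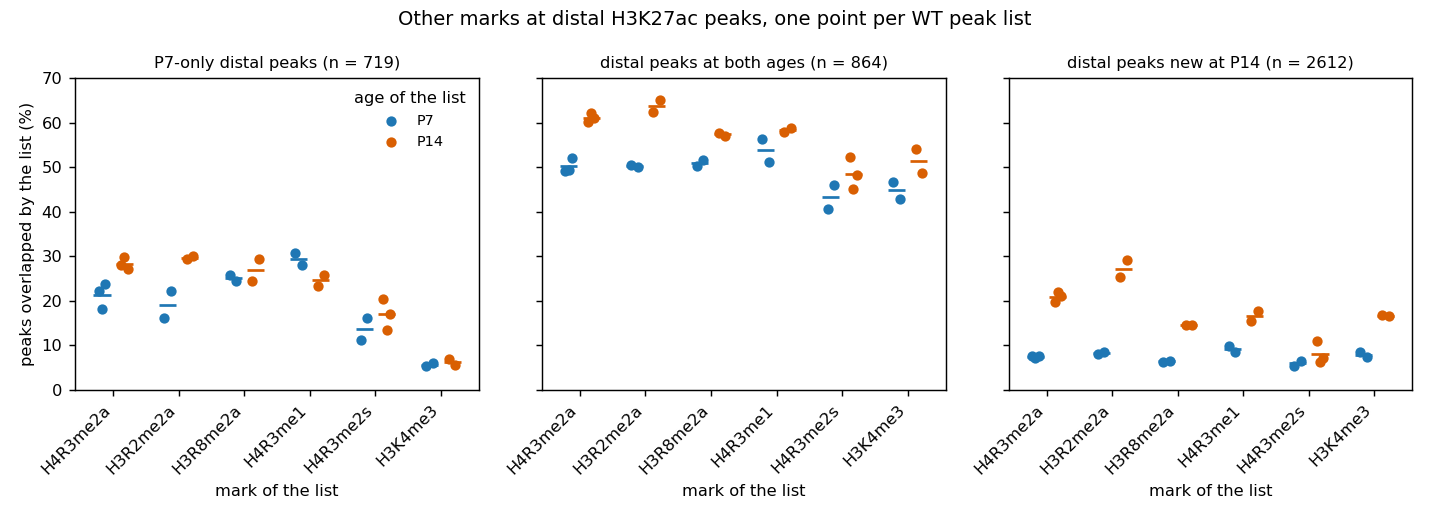
Share of distal H3K27ac peaks (percent) overlapped by the peaks of each other mark, for the P7-only regions (left), the peaks at both ages (middle) and the peaks new at P14 (right). Each point is 1 WT peak list, blue at P7 and orange at P14, and lines are means. P7-only regions lie between 5.29% and 30.7%, and H4R3me1 is the only mark lower in both P14 lists than in both P7 lists.

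Most of this overlap lay on repeated windows. In all 27 lists a larger share of the 309 repeated regions than of the other 410 was overlapped, and between 63.8% and 82.9% of the overlapped regions in a methylarginine list had a repeated window. At P7, 52.9% ± 4.81 (SD, n = 2) of the repeated regions and 11.7% ± 0.345 of the others had an H4R3me1 peak. For H4R3me2a at P7 the shares were 40.2% ± 5.23 and 7.15% ± 1.13 (n = 3), and for H3R8me2a 46.3% ± 0.915 and 9.02% ± 2.41 (n = 2). The lower share of H4R3me1 at P14 was confined to the repeated regions in these lists, where it was 39.6% ± 0.687, since the others stood at 13.2% ± 2.41. Among the other 410 regions the mean share was higher at P14 for H4R3me2a (14.1% ± 2.53), H3R2me2a (8.05% ± 3.79 to 15.5% ± 0.172) and, by less than the SD of the P7 or P14 lists, for H3R8me2a and H4R3me1, and it was 7.93% ± 3.28 and 7.72% ± 1.39 for H4R3me2s. Over all 6 marks these 410 regions gave 3.04 percentage points more at P14 (exact permutation p = 0.00212, adjusted p = 0.00424, chosen after the data were seen). The P14 lists were longer here too, and with lists of equal length the difference was -0.901 percentage points (exact permutation, adjusted p = 0.138). The same split was seen at the distal peaks at both ages, where 61.7% to 84.8% of repeated and 20.5% to 30.1% of other regions were overlapped by the P7 methylarginine lists. The sources at hand do not say how reads from repeated sequence were placed, and the part of this in the overlaps was not tested.

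**Figure D3:**
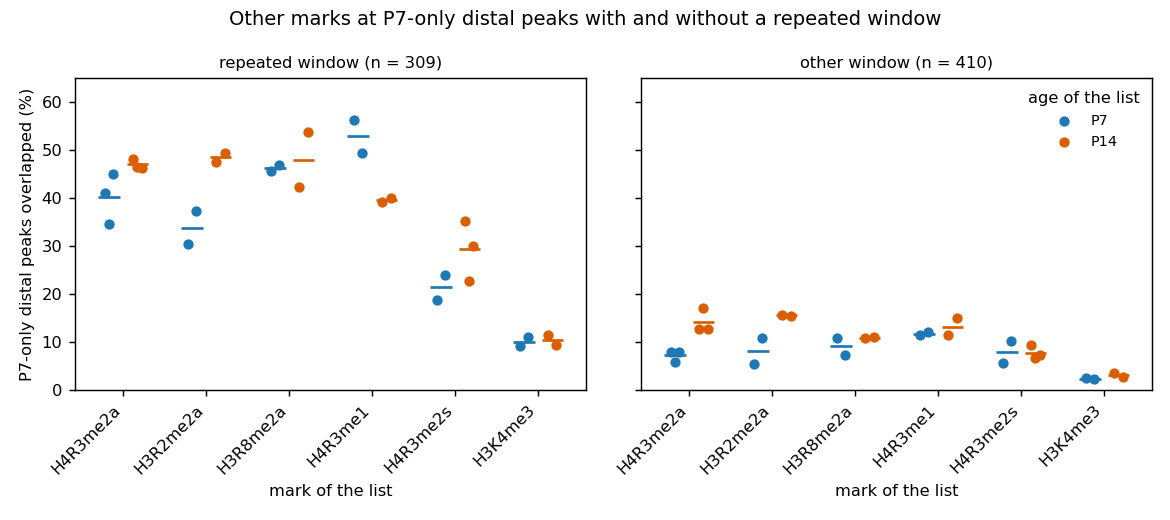
Share of the P7-only distal peaks (percent) overlapped by each WT peak list, for the 309 regions with a repeated window (left) and the 410 others (right), blue for P7 lists and orange for P14 lists, with lines at the means. Repeated regions are overlapped more often in every list, and the decrease of H4R3me1 from 52.9% to 39.6% appears on the left only.

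Taking a mark as present when at least 2 of its lists overlapped a region, 500 of the 719 regions (69.5%) held none of the 5 methylarginine marks at P7, against 43.2% of the distal peaks at both ages. A single mark was on 82 regions and all 5 were on 19 (2.64%), against 28.1% at both ages. The median fold enrichment of H3K27ac was 3.17 at regions with none and 3.79 at regions with all 5. Of the regions with none, 374 were among the 410 without a repeated window (91.2% of these) and 126 among the 309 with one (40.8%). At P14, 268 regions (37.3%) held at least 1 methylarginine mark while H3K27ac was in neither list. The share with none at P14 was 62.7%, against 33.2% of the distal peaks at both ages and 72.6% of those new at P14. Regions with none at P14 were 336 of the 410 without a repeated window and 115 of the 309 with one. Of the regions with a mark at P7, 75% (99 of 132) also had it at P14 for H4R3me2a and 73.7% for H4R3me2s. For H3R2me2a, H3R8me2a and H4R3me1 this share was 72.2%, 59.2% and 47.4%. Each share was lower than at the distal peaks at both ages (88.7% to 97.8%). At the distal peaks new at P14 the shares were 67.6%, 45%, 71.4%, 51.9% and 37.5% in the same order of marks. The marks differ in stringency, since H4R3me2a at both ages and H4R3me2s at P14 needed 2 of 3 lists and the others 2 of 2. Only 17 regions were in all 11 methylarginine lists of P7, and 13 of them had a repeated window. The region near Fam174a was in 11 of 11 lists at P7 and 11 of 12 at P14, and in all 4 H3K4me3 lists. That near Frmd6 was in 10 and 12 lists, whereas those near Mettl15 and Rnf13 were in none at either age.

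Loss of Prmt1 could be followed at these regions for H4R3me2s alone. In WT the 2 lists overlapped 11.3% and 16.1% of the regions, and in dKO 15.2% and 13.2%. The genotypes overlapped, and the means of 13.7% ± 3.44 and 14.2% ± 1.38 (SD, n = 2) differed by 0.487 percentage points (exact permutation p = 1, where 2 against 2 lists cannot go below 0.33). At the distal peaks at both ages the means were 43.3% ± 3.68 and 40.3% ± 1.96 (exact permutation p = 0.667).

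The regions were spread over the genome and mostly lay singly. An intron held 427 (59.4%) of the summits, 271 (37.7%) were intergenic and 21 were exonic, and the median distance to a protein-coding transcript start was 22380 bp, with 128 regions (17.8%) beyond 100 kb. The nearest protein-coding genes numbered 665, of which 618 had 1 region, 41 had 2, 5 had 3 and 1, Dsel, had 4. Dsel encodes an epimerase of dermatan sulfate, and its regions lay 82758 to 621812 bp from its start on chromosome 1. The 5 genes with 3 regions were Psat1 (an enzyme of serine synthesis, 305224 to 451618 bp away), Osr1 (a transcription factor of urogenital mesenchyme, 125801 to 143823 bp), Pan3 (a subunit of a deadenylase, 6675 to 26259 bp), Asmt (the last enzyme of melatonin synthesis, 138976 to 193188 bp) and Dcbld2 (a membrane receptor-like protein, 5553 to 13106 bp). All 3 Asmt windows and all 3 Osr1 windows were repeated, and the Asmt windows shared a best shift of 31 bases. Neighbouring regions are not independent, and 10 of the 719 shared a replicate 2 peak with another region. Of the 665 genes, 86 (12.9% of them, and 12.2% of the other list) were also nearest to a distal peak at both ages, and 208 (31.3% and 9.83%) to a distal peak new at P14.

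Most of the nearest protein-coding genes were expressed. Their median level in WT bulk testis was 18.6 ± 1.20 TPM (SD of the library medians, n = 3) and 81.3% ± 0.2297 of them reached 1 TPM, against 5.93 ± 0.279 TPM and 62.5% of all 21897 protein-coding genes. In WT Smart-seq2 spermatogonia the values were 5.97 ± 0.177 TPM and 62.7% ± 2.13 (n = 2), against 1.01 ± 0.735 TPM and 50.05%. With the nearest gene of any type, 47.4% reached 1 TPM in bulk testis and 38.1% in Smart-seq2, at medians of 0.583 and 0 TPM. Protein-coding genes nearest to the distal peaks at both ages gave nearly the same levels, with 16.95 ± 0.851 and 5.61 ± 0.0778 TPM, and those nearest to the peaks new at P14 gave 18.3 ± 0.980 and 7.84 ± 0.0636 TPM. Of the 665 genes, 430 reached a mean of 1 TPM in both assays, 108 in bulk testis only, 16 in Smart-seq2 only and 111 in neither. The median difference between the assays, on the log2(TPM + 1) scale, was 0.62 in favour of bulk testis, against 0.06 over all protein-coding genes, and it was 0.56, 0.69 and 0.41 for the genes nearest to the distal peaks at both ages, with 1 P14 list and new at P14. The assays differ in protocol as well as in cells, and in bulk testis fewer cells of a type and less RNA per cell cannot be told apart. An H3K27ac summit lay within 3000 bp of a start of 313 of the genes (47.1%) in both P7 lists and of 437 (65.7%) in both P14 lists, so that more of these genes had an acetylated promoter at P14, when the distal peak was absent, from P14 lists that were also longer. The same shares were 31.0% and 49.0% over all protein-coding genes. They were 48.2% and 67.8% for the genes nearest to the distal peaks at both ages. For those nearest to the peaks new at P14 they were 45.4% and 67.3%, so the rise was shared by all these sets.

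The highest transcripts among the nearest genes belonged to housekeeping genes, of which the ribosomal ones have many pseudogenes that can share their reads. Rps10, a ribosomal protein gene, stood at 2557, 2518 and 2716 TPM in WT bulk testis and at 1066 and 914.6 TPM in WT Smart-seq2. Rps26 stood at 2119, 2193 and 2348 TPM and at 1375 and 1285 TPM, and Rpl11 at 1451, 1336 and 1558 TPM and at 969.0 and 733.8 TPM. Cox6a1, a subunit of cytochrome oxidase, and Dynll1, a dynein light chain, completed the highest 5 in bulk testis (means of 880 and 562 TPM), and Rnaset2b, a ribonuclease, replaced Dynll1 in Smart-seq2 (mean of 485 TPM, against 157 TPM in bulk testis).

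Of the 220 marker and pathway genes, 9 (4.09%) were among the nearest genes, against 3.04% of all protein-coding genes. Of 18 germ cell, 19 Sertoli, 9 Leydig and 11 stromal genes, 1 of each was (Kit, Fshr, Cyp17a1 and Lum), and of 18 spermatocyte, 7 peritubular, 9 macrophage and 7 endothelial genes none was. The pathway lists gave Id1 and Smad3 of 37 TGF-beta family genes, Lrp6 of 30 WNT genes, Lats2 and Yap1 of 20 Hippo genes, and none of 20 retinoic acid or 15 AP-1 and early response genes. Of the same 220 genes, 7 (3.18%) were nearest to the distal peaks with 1 P14 list, 14 (6.36%) to those at both ages and 44 (20%) to those new at P14, where these sets held 3.09%, 3.22% and 9.66% of all protein-coding genes. The list genes are described below by the cell or pathway they belong to.

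Kit encodes the receptor tyrosine kinase of differentiating spermatogonia. It lies at chr5:75574916-75656722, and its 2 regions at chr5:75377672-75377909 and chr5:75378108-75378636 were intergenic, 197127 and 196641 bp from its start, without a repeated window. Neither held an H3K4me3 peak, and the second held a methylarginine peak in 1 list only (H4R3me2s at P7). Kit RNA stood at 52.2, 54.6 and 47.4 TPM in WT and 56.1, 29.2 and 34.8 TPM in dKO bulk testis, and at 73.0 and 57.4 TPM in WT and 53.6 and 77.7 TPM in dKO Smart-seq2, with the genotypes overlapping in both assays. The log2 fold change in bulk testis was -0.53 ± 0.21 (SE; edgeR adjusted p = 0.112). It was -0.81 without dKO replicate 1 (edgeR adjusted p = 0.0222) and -0.34 without dKO replicate 2 (edgeR adjusted p = 0.0749).

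The somatic genes were present in bulk testis and nearly absent from the sorted cells. Fshr, the receptor for follicle-stimulating hormone on Sertoli cells, was at 24.3, 27.7 and 25.1 TPM in WT bulk testis and at 0.42 and 1.10 TPM in WT Smart-seq2, and its region lay in its own intron 202137 bp from the start. Lum, which encodes the matrix proteoglycan lumican, was at 23.1, 28.9 and 27.04 TPM in WT and 39.97, 38.6 and 36.8 TPM in dKO bulk testis, so that every dKO library exceeded every WT library (log2 fold change 0.71 ± 0.13, SE; edgeR adjusted p = 0.00671, under the required fold of 2). It was at 0.06 TPM in 1 WT Smart-seq2 library and listed at 0 in the other. Cyp17a1, the enzyme of androgen synthesis in Leydig cells, was at 88.6, 64.8 and 75.7 TPM in WT and 2.47, 2.66 and 1.26 TPM in dKO bulk testis and listed at 0 in all 4 Smart-seq2 libraries. Its log2 fold change was -4.97 ± 0.26 (SE; edgeR adjusted p = 4.07e-05), the largest decrease among the nearest genes. The region near Cyp17a1 (chr19:46652680-46653049) was low, with fold enrichments of 2.61 and 3.11, and its window was repeated. Over the whole Leydig list, 5 of 8 genes tested were lower in dKO bulk testis and the summed level fell from 776 to 876 TPM in WT to 282 to 306 TPM in dKO, where 1.78% of all genes tested were lower. Of the other somatic lists, the peritubular one had 4 of 7 genes lower (864 to 945 TPM in WT and 302 to 529 TPM in dKO in sum), and the Sertoli one 1 of 18 (8004 to 8650 and 5323 to 5979 TPM). The stromal and endothelial lists had 0 of 11 and 0 of 7 lower (4452 to 4701 and 4675 to 5686 TPM, and 138 to 141 and 134 to 160 TPM), and the macrophage list 1 of 8 (115 to 131 and 134 to 163 TPM). Cyp11a1, Star and the other members of the list share this cell type, and its part in the value of Cyp17a1 was not tested.

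Among the signalling genes, Id1, an inhibitor of basic helix-loop-helix factors and a common target of bone morphogenetic protein signals, was at 61.1, 59.5 and 69.5 TPM in WT and 112.5, 123.0 and 94.3 TPM in dKO bulk testis, without overlap (log2 fold change 0.99 ± 0.16, SE; edgeR adjusted p = 0.00479, just under the required fold of 2). In Smart-seq2 it was listed at 0 in 1 WT library and at 11.7 TPM in the other. Smad3, which carries activin and TGF-beta signals to the nucleus, was at 30.3 to 34.7 TPM in WT and 23.8 to 37.8 TPM in dKO bulk testis, with overlap. Yap1, the co-activator restrained by the Hippo kinases, was at 121.2, 119.0 and 108.3 TPM in WT and 83.8, 52.4 and 84.5 TPM in dKO, without overlap (log2 fold change -0.49 ± 0.13, SE; edgeR adjusted p = 0.0323). Its adjusted p was 0.1296, 0.107 and 0.0886 without WT replicates 1, 2 and 3 in turn and 0.0604 without dKO replicate 1 (edgeR). In Smart-seq2 Yap1 was at 17.1 and 16.8 TPM in WT and 18.9 and 22.7 TPM in dKO (log2 fold change 0.63; edgeR adjusted p = 0.323). Lats2, a Hippo kinase, was at 43.4 to 50.9 TPM in WT and 19.0 to 40.5 TPM in dKO (adjusted p = 0.0948), with 28.6 and 15.6 TPM in WT and 27.6 and 43.3 TPM in dKO Smart-seq2 (log2 fold change 0.91; edgeR adjusted p = 0.332), and Lrp6, a WNT co-receptor, at 25.3 to 27.5 and 15.8 to 24.6 TPM (adjusted p = 0.513). None of these 5 genes passed both thresholds with all libraries. Id1 passed both without WT replicate 3, dKO replicate 1 or dKO replicate 3, and not when another library was left out. The log2 fold changes in these 3 fits were 1.07, 1.02 and 1.09 (edgeR adjusted p = 0.017, 0.0128 and 0.0081).

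**Figure D4:**
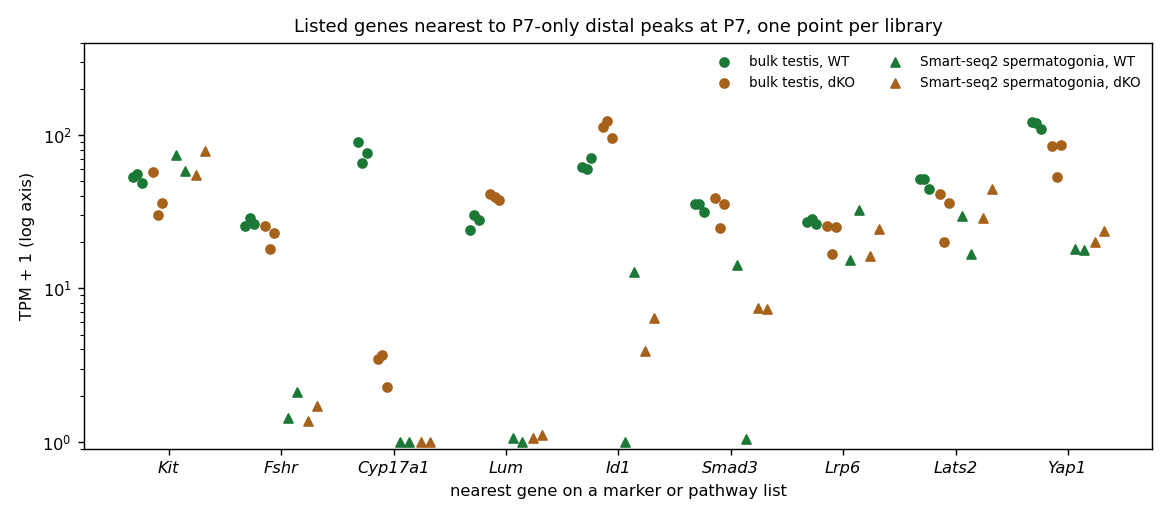
TPM + 1 on a log axis at P7 for the 9 marker or pathway genes nearest to a P7-only distal peak, one point per library, circles for bulk testis (3 WT, 3 dKO) and triangles for Smart-seq2 spermatogonia (2 WT, 2 dKO), green for WT and brown for dKO. Cyp17a1 falls from 64.8 to 88.6 TPM in WT to 1.26 to 2.66 TPM in dKO bulk testis, and Fshr, Cyp17a1 and Lum are at or below 1.10 TPM in all Smart-seq2 libraries.

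Across all nearest genes, few passed the test between the genotypes in bulk testis, at an edgeR adjusted p below 0.05 and a fold of at least 2. Of 572 nearest genes tested, 16 (2.80%) were higher and 11 (1.92%) lower in dKO. Over all 16554 genes tested, 5.32% were higher and 1.78% lower, and over the protein-coding genes alone 3.69% and 1.80%. The median log2 fold change of the 572 genes was -0.12, against 0.02 for all genes tested, and it was -0.13, -0.094 and -0.093 for the genes nearest to the distal peaks with 1 P14 list, at both ages and new at P14. The genes nearest to the distal peaks at both ages gave 2.36% higher and 1.68% lower. In dKO replicate 2 the nearest genes had a lower median level than in the other dKO libraries (11.4 TPM, against 16.55 and 15.4 TPM), as did all protein-coding genes (4.80, against 5.94 and 5.30 TPM). Without it the median log2 fold change of the nearest genes was -0.060, that of Adgrl2 went from -0.36 to -0.17 and that of Lats2 from -0.52 to -0.30 (edgeR adjusted p = 0.0948 and 0.0154). These shares were not tested against each other. The counts are sensitive to single libraries, with 8 nearest genes higher and 7 lower once WT replicate 1 was left out, and 9 higher once WT replicate 2 was.

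After Cyp17a1, decreases with at least 50 reads and no overlap between genotypes included those of Cntn4, Trim62 and Dcbld2. Cntn4, a neuronal adhesion molecule, went from 3.16 to 3.54 TPM in WT to 0.24 to 1.77 TPM in dKO (log2 fold change -1.93 ± 0.35, SE; edgeR adjusted p = 0.00701), and its region was an intronic tandem array that matched itself at 96.6% of positions at a shift of 66 bases. Trim62, a RING-finger protein, was at 80.5, 70.1 and 62.4 TPM in WT and 25.9, 20.7 and 23.4 TPM in dKO (-1.45 ± 0.11; edgeR adjusted p = 0.000362). Dcbld2, with 3 regions, was at 50.95, 48.02 and 42.04 TPM in WT and 23.9, 11.4 and 22.02 TPM in dKO (-1.19 ± 0.19, edgeR adjusted p = 0.00396). Without dKO replicate 2, Dcbld2 stayed just under the required fold (log2 fold change -0.989). It was at 4.48 and 10.7 TPM in WT and 1.37 and 3.13 TPM in dKO Smart-seq2 (-1.94, edgeR adjusted p = 0.199), where DESeq2 called it lower (-1.99, DESeq2 adjusted p = 0.0132). No nearest gene with several regions other than Dcbld2 was among these named decreases. Osr1 stood at 40.1, 31.1 and 27.4 TPM in WT and 13.7, 14.99 and 18.5 TPM in dKO and Psat1 at 102.7, 93.1 and 90.02 and at 67.5, 60.6 and 57.9 TPM, without overlap between genotypes but with a fold under 2 (log2 fold changes -0.86 and -0.54; edgeR adjusted p = 0.0101 and 0.00768, the latter 0.0564 without WT replicate 1). Dsel was at 11.2 to 13.8 and 5.97 to 11.9 TPM, with overlap, and Asmt was listed at 0 in all but 1 library of either assay.

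Pan3 was at 36.3, 38.0 and 30.5 TPM in WT and 51.5, 37.9 and 43.2 TPM in dKO bulk testis, with overlap (log2 fold change 0.35; edgeR adjusted p = 0.0774). In Smart-seq2 it was at 39.4 and 69.9 TPM in WT and 89.2 and 126.5 TPM in dKO, without overlap (1.60; edgeR adjusted p = 0.0774), and DESeq2 called it higher (1.55; DESeq2 adjusted p = 1.34e-07). Among genes with 2 regions, the 4 best ranked were Rpap3 (a co-chaperone), Myom2 (a myomesin of muscle), Rassf8 (a Ras-association domain protein) and Adgrl2 (a latrophilin receptor). Rpap3 was at 29.2 to 30.99 TPM in WT and 21.7 to 28.97 TPM in dKO bulk testis, and Adgrl2 at 101.3 to 106.3 and 55.4 to 98.5 TPM, without overlap in either (edgeR adjusted p = 0.669 and 0.174). Rassf8 was at 36.6 to 38.4 and 25.7 to 45.2 TPM, with overlap (edgeR adjusted p = 0.492). Myom2 was at 0 to 0.25 and 0.30 to 0.35 TPM, under the count filter of the edgeR test with all libraries. DESeq2 gave Myom2 a log2 fold change of 2.75 (DESeq2 adjusted p = 0.0515). Some edgeR fits with 1 library left out tested Myom2 (edgeR adjusted p = 0.0335 to 0.146).

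The increases under the same rule were led by Cyp2u1, a cytochrome P450, at 1.10, 1.45 and 1.25 TPM in WT and 4.46, 2.39 and 4.43 TPM in dKO (log2 fold change 2.20 ± 0.23, SE; edgeR adjusted p = 0.00119). Serpinc1, which encodes antithrombin, rose from 0.94 to 1.65 TPM to 3.22 to 5.39 TPM (1.81 ± 0.26; edgeR adjusted p = 0.00286), and Gm21860, on the Y chromosome, from 3.50 to 8.94 TPM to 12.7 to 16.1 TPM (1.46 ± 0.42; edgeR adjusted p = 0.0388). Gm21860 was not called without WT replicate 1 or 2 or without dKO replicate 1 or 3 (edgeR adjusted p = 0.141, 0.117, 0.0921 and 0.1005). In these fits its log2 fold change was 1.12 to 1.42, and without WT replicate 3 it was 2.15 (edgeR adjusted p = 0.0123). Genes named like Gm21860 on the Y chromosome can have close copies. Copies of Gm21860 were not counted here, so its level is uncertain. Galnt15, a glycosyltransferase (1.26, 1 and 1.19 TPM in WT and 2.11, 1.35 and 2.52 TPM in dKO), and Ggnbp1, a gametogenetin-binding protein of germ cells (10.4 to 11.9 TPM in WT and 17.3 to 23.3 TPM in dKO), followed with log2 fold changes of 1.22 and 1.14 (edgeR adjusted p = 0.00999 and 0.0073). Without WT replicate 2 the edgeR adjusted p of Galnt15 was 0.0534. Galnt15 without dKO replicate 3 and Ggnbp1 without dKO replicate 2 had a log2 fold change of 0.993, under the required fold. In Smart-seq2 the levels of Ggnbp1 were 5.07 and 4.40 TPM in WT and 14.2 and 8.28 TPM in dKO, with a log2 fold change on counts of 0.14 that did not pass the test (edgeR adjusted p = 0.968).

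In Smart-seq2, edgeR called none of 539 nearest genes tested in either direction, and none of all 16443 genes tested (0.0% higher and 0.0% lower). Before adjustment, 86 nearest genes were higher and 18 lower in dKO with p below 0.05 and at least a 2-fold difference (16.0% and 3.34% of the 539), where these shares were 13.8% and 4.12% over all genes tested and 12.7% and 4.04% over protein-coding genes. DESeq2 called 56 of 593 higher (9.44%) and 17 lower (2.87%). Counted in the same way, it called 6.73% and 3.49% of 16049 protein-coding genes. Among the 16960 genes of any type that had a DESeq2 adjusted p, it called 7.28% and 3.9%. The median log2 fold change of the nearest genes was 0.28, against 0.15 for all genes tested and 0.27 for the genes nearest to the distal peaks at both ages, of which DESeq2 called 8.89% higher. The estimated biological coefficient of variation was 0.767, against 0.155 in bulk testis. Trim62, for example, was at 0.73 and 8.49 TPM in the WT pair. No test of a difference between the assays was made.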

How the data were processed

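The members, lists and comparisons were chosen with earlier results of these data known. CUT&Tag was measured in WT testis cells at P7 and P14 and in dKO cells at P7, and RNA at P7 in 2 genotypes. Reads were trimmed with fastp 0.23.2, and the authors called peaks for each library with MACS2 2.1.0 on mm10 (p of 0.005, or q of 0.05 for H3K4me3). For the CUT&Tag data, aligner and control library: not given in the sources used here. The deposited peak lists hold fold enrichment (a ratio over local background) and −log10 p and −log10 q values. The deposited RNA tables hold RSEM expected counts and TPM made by the authors after STAR alignment. Total expected counts were 12396317 to 16598233 per bulk and 15610354 to 18547078 per Smart-seq2 library, so low genes carry few reads and a wide error. No per-sample column was left unassigned.

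Peaks overlapped when they shared at least 1 bp. A nearest gene was the protein-coding gene with the nearest GENCODE vM21 transcript start, and all 665 matched the RNA tables by Ensembl identifier. Expected counts were rounded, filtered with filterByExpr, normalized by TMM and tested with edgeR 4.0.16 (quasi-likelihood, Benjamini-Hochberg over all genes tested), with DESeq2 1.42.0 as an alternative. Peak lists were the replicates of mark comparisons, tested by exact permutation of ages within marks (259200 arrangements), with 0.5 added to counts in log2 ratios. Windows of 300 bases were read from RefSeq GRCm38 and aligned with minimap2 2.31-r1302. TPM were compared as log2(TPM + 1). Listed genes were named throughout, as were the 10 highest regions, the 10 genes with most regions, up to 5 genes per direction that passed the bulk test with at least 50 reads on average and no overlap between genotypes, and the 5 highest genes per assay. A gene that this rule names is not reported here. Alternatives covered overlap, distance, list length, q, left-out lists and libraries, replicate blocks, normalization, filters, pseudocount and the choice of nearest gene. The authors' bulk replicate numbers did not pair the libraries (correlations of deviations 0.0825, -0.221 and -0.119).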

Additional observations from a re-analysis of the deposited data

Results flagged for a closer look

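At the P7-only distal peaks the lists of 2 marks lay higher at P14 in every list and those of 1 mark lay lower in every list. The share of regions overlapped was 6.91 percentage points higher at P14 for H4R3me2a and 10.6 percentage points higher for H3R2me2a, while for H4R3me1 the difference was -4.87 percentage points. The P14 lists were 2.35, 2.62 and 1.32 times as long for these marks. With lists of equal length the differences were -3.99, -2.16 and -8.34 percentage points, so the rises of H4R3me2a and H3R2me2a did not hold. The opposite directions of these marks were not tested against each other. The fall of H4R3me1 was -13.3 percentage points at the 309 regions with a repeated window and 1.46 percentage points, a rise, at the other 410, in 2 lists per age.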

How the results depend on the processing

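The number of P7-only distal peaks was 314 when the P7 replicates had to share 50% of both peaks, 449 beyond 10 kb from a transcript start, 49 with a q-value of 0.01 or less in both P7 lists and 410 without repeated windows (the last chosen after seeing the data). With 1 list left out it was between 1032 and 7533. The mean share of regions with another mark was 3.05 percentage points higher at P14, and 2.55 to 3.55 higher with 1 list left out. It was 3.14 higher with a q-value of 0.01 or less in the other lists (exact permutation, adjusted p = 0.0297), and 4.63 without H4R3me1 (adjusted p = 0.00426) or 3.04 without repeated windows (adjusted p = 0.00424), both chosen after seeing the data. The difference was 1.81 for regions with a q-value of 0.01 or less (adjusted p = 0.342) and 2.04 when the other mark had to cover the summit (adjusted p = 0.283). With lists of equal length it was -3.33, and -0.901 for the regions without repeated windows. The log2 ratio to the distal peaks at both ages, 0.01 at P14 relative to P7, was -0.50 with lists of equal length (-0.53 without repeated windows), -0.0021 when the other mark had to cover the summit, -0.13 for regions with a q-value of 0.01 or less and -0.025 without repeated windows. With 1 list left out it lay between -0.0282 and 0.0490. The difference in H4R3me2s between dKO and WT was -0.556 with lists of equal length and between -1.95 and 2.92 with 1 list left out.

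In bulk testis, 8 nearest genes were higher in dKO when the nearest gene could be of any type, and with 1 library left out 8 to 16 were higher and 7 to 14 lower. In Smart-seq2, DESeq2 called 56 higher and 17 lower, and with 1 library left out edgeR called 0 to 186 higher and 0 to 50 lower, where the lone sample of a genotype is assumed to vary like the others. The replicate block gave 12 higher and 11 lower nearest genes in bulk testis and 0 and 0 in Smart-seq2, 3.04 percentage points and a log2 ratio of 0.0077 for the marks, and 0.487 percentage points for H4R3me2s. The number of nearest genes higher in dKO bulk testis thus went from 16 to 12 under the block. The replicate numbers did not pair the RNA libraries, and pairing of the peak lists was not checked.

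The median level in WT was 18.6 TPM in bulk testis and 5.97 TPM in Smart-seq2, with 81.3% and 62.7% of genes at 1 TPM. With the nearest gene of any type these values were 0.583 TPM, 0 TPM, 47.4% and 38.1%. With genes within 100 kb they were 20.5 TPM, 7.31 TPM, 84.8% and 66.1%, and with genes at 0.1 TPM in any library 20.6 TPM, 7.01 TPM, 85.2% and 65.8%. The log2 difference between the assays of 0.62 became 0, 0.70 and 0.71 under these choices and 0.97 with a pseudocount of 0.1, and it was 0.59 to 0.68 with 1 library left out. The cause of each shift was not tested. Low peak height, 2 lists per age and unknown depth limit every statement on absence of a peak.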
